A study of Mus musculus with 6 samples.

Results

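The chemokine gene Cxcl12 and the genes of its receptors, Cxcr4 and Ackr3, were followed in embryonic mouse kidneys that lack the Wnt receptor Fz8, with or without a second Wnt receptor, Fz4. The 3 genes were chosen by name, and every probe set annotated to a single one of them was taken, which gave 5 of the 45037 probe sets tested and 3 of 18193 genes. Where a gene had several probe sets, the one with the highest mean over the arrays represented it. Whole kidneys at E13.5 were hybridised to Affymetrix MOE430.2 arrays, 1 array per sample. The control group had wild-type Fz4 and no Fz8 (Fz4+/+Fz8-/-, here Fz8-null, arrays C1, C2 and C3), and the other group lacked both receptors (Fz4-/-Fz8-/-, here double-null, arrays M1, M2 and M3). The groups therefore share the loss of Fz8, and the comparison asks what the further loss of Fz4 goes with. All embryos were of a hybrid background of C57BL/6, 129X1/SvJ and 129S1/Sv, and the labels call the samples biological replicates without saying whether an array holds 1 embryo or several. Of the kidney markers, Wt1 read between 10.31 and 10.81 and Foxd1 between 9.98 and 10.16 over the arrays on the log2 scale. Ret ranged from 7.75 to 9.51 and Six2 from 6.86 to 8.50. Alb, a liver gene, ranged from 5.82 to 11.03.

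Cxcl12 is a secreted chemokine that guides migrating cells along its gradient. Cxcr4 is a G protein-coupled receptor that signals through inhibitory G proteins when Cxcl12 binds, and Ackr3 (formerly Cxcr7) is an atypical receptor that binds Cxcl12, recruits arrestin and takes the ligand into the cell, and so shapes its gradient. In the embryo the axis directs blood cell homing, germ cell and neuronal migration and vessel patterning, and in the kidney it is known for its part in forming the renal and glomerular vasculature.

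The stretch just upstream of each gene is shown because the groups did not overlap on the probe set that represents it. The same held for 18.9% of all genes, and none of the 3 passed the threshold (limma adjusted p under 0.05). The sequences were read from the RefSeq promoter table of GRCm38.p6, where all 3 genes were found. Each sequence is the 250 bases before the annotated start, 5′ to 3′ on the strand of the gene: chr6:117168285-117168534 on the plus strand for Cxcl12, chr1:128592300-128592549 on the minus strand for Cxcr4 and chr1:90203730-90203979 on the plus strand for Ackr3. Both receptor genes lie on chromosome 1 and Cxcl12 on chromosome 6, and Fzd4, which encodes Fz4, is on chromosome 7. Capitals mark matches, on either strand, to 4 motifs picked with these sequences in view: the core promoter motif TATAAA, at which the basal transcription machinery can assemble, the TCF/LEF motif ATCAAAG of Wnt signalling, the core ACGTG of hypoxia response elements and the GC box GGGCGG of Sp1 family factors.
Cxcl12: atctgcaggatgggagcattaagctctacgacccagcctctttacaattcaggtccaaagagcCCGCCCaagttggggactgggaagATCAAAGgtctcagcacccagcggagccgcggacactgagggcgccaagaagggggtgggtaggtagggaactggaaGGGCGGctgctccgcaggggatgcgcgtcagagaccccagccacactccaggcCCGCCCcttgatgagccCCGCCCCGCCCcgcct
Cxcr4: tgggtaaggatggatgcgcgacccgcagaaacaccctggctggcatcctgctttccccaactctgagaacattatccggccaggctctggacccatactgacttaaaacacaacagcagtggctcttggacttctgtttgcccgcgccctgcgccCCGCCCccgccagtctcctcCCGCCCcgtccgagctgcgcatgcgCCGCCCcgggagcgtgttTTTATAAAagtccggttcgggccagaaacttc
Ackr3: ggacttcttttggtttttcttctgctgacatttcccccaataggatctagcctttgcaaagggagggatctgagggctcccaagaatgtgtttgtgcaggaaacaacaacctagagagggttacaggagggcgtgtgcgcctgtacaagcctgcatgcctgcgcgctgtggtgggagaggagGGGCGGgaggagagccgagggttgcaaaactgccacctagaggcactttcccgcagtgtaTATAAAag

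Cxcr4 held TATAAA on both strands in 2 overlapping matches, the plus-strand one 30 to 25 bases before the start, and Ackr3 held it 8 to 3 bases before the start. The Cxcl12 window had no match to it, and 12.4% of the 32851 promoter windows in the table had one. ATCAAAG was found in the Cxcl12 window alone of the 3, between 163 and 157 bases before the start, against 3.21% of all windows. GC boxes numbered 5 in Cxcl12, of which 2 share a base, 3 in Cxcr4 and 1 in Ackr3, and 32.7% of windows had any. G and C made up 64.4%, 61.2% and 54% of these 3 windows, against a median of 52.4% over all windows. ACGTG matched none of the 3 windows and 16.6% of all. These matches describe the letters of the windows and were not tested as binding sites.

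Cxcr4, the signalling receptor, was lower in every double-null kidney. Its single probe set (1448710_at) read 11.17, 11.12 and 11.21 in C1, C2 and C3 and 10.85, 10.84 and 10.83 in M1, M2 and M3. The groups did not overlap, and the 3 double-null arrays lay within a few hundredths of a log2 unit of one another. The mean was 11.17 ± 0.043 (SD, n = 3) in Fz8-null and 10.84 ± 0.0062 (SD, n = 3) in double-null kidneys, a difference of -0.33, or a 1.25-fold lower level (95% interval of the difference -0.60 to -0.057). In limma's moderated test this gave a standard error of 0.11, an unadjusted p of 0.0241 and an adjusted p of 0.314 over all genes, so Cxcr4 did not pass the threshold of 0.05. The exact permutation test gave p = 0.1, the smallest that 3 arrays against 3 allow.

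Ackr3, the scavenging receptor, was higher in every double-null kidney. Its single probe set (1417625_s_at) read 10.36, 10.35 and 10.39 in C1, C2 and C3 and 10.65, 10.52 and 10.56 in M1, M2 and M3. The groups did not overlap here either, and M1 was the highest. The mean was 10.37 ± 0.025 (SD, n = 3) in Fz8-null and 10.58 ± 0.065 (SD, n = 3) in double-null kidneys, a difference of 0.21, or a 1.16-fold higher level (95% interval of the difference -0.067 to 0.48). Ackr3 did not pass (SE 0.12, limma adjusted p = 0.390; exact permutation p = 0.1). The suffix _s_at in the name marks a probe set whose probes can match more than 1 transcript, and the annotation lists Ackr3 alone for it.

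Cxcl12, the ligand of both receptors, differed between its probe sets: the brightest was higher in every double-null array, the second was higher on average with overlapping groups, and the third, which was dim, was lower on average. The brightest (1448823_at) read 10.33, 10.63 and 10.58 in C1, C2 and C3 and 10.68, 10.84 and 10.81 in M1, M2 and M3. The groups did not overlap, though C2 and M1 were only hundredths of a log2 unit apart and C1 stood below the other controls. The mean was 10.51 ± 0.16 (SD, n = 3) in Fz8-null and 10.78 ± 0.088 (SD, n = 3) in double-null kidneys, a difference of 0.26, or a 1.20-fold higher level (95% interval of the difference -0.067 to 0.59; SE 0.14, limma adjusted p = 0.372; exact permutation p = 0.1). A second bright probe set (1417574_at) read 9.93, 9.76 and 9.77 in the Fz8-null and 9.80, 9.85 and 10.14 in the double-null arrays. On it the groups overlapped, and only M3 lay above every control (difference 0.11, 95% interval -0.24 to 0.46, limma adjusted p = 0.693 over all probe sets; exact permutation p = 0.5). The third (1439084_at) was dim, with 4.15, 4.46 and 4.59 in the Fz8-null and 4.40, 4.13 and 4.17 in the double-null arrays, and its difference was -0.17 (limma adjusted p = 0.598; exact permutation p = 0.3). The Cxcl12 difference was 0.17 without C1, 0.11 with array weights and 0.069 for the mean of its 3 probe sets, so its size rested on the brightest probe set and in part on C1. With the level of the hybridization controls as a covariate, chosen after the data were seen, it was 0.48 (SE 0.26, limma adjusted p = 0.995).

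**Figure D1:**
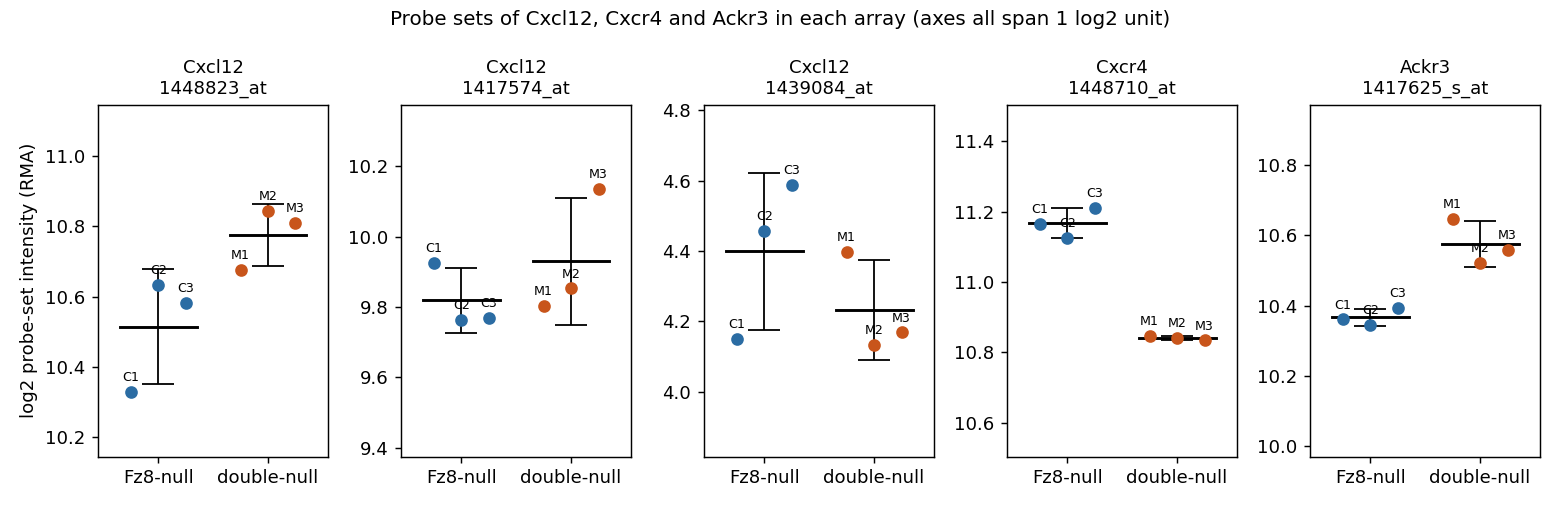
Log2 probe-set intensity of each of the 5 probe sets in the Fz8-null arrays (blue, C1 to C3) and the double-null arrays (orange, M1 to M3). Points are single arrays, horizontal bars the group mean and whiskers the SD of 3 arrays. The groups are separate for the brightest Cxcl12 probe set, for Cxcr4 and for Ackr3, and they overlap for the other Cxcl12 probe sets.

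Read against all genes, these separations were of a common kind. Of 18193 genes, 12.2% were lower in the double-null group without overlap, as Cxcr4 was, and 6.68% were higher without overlap, as Ackr3 and Cxcl12 were. By limma's adjusted p 0 of the 3 genes passed, where 5 of all genes did (0.0275%), and 0 of their 5 probe sets did, where 0.0111% of all probe sets passed. At an unadjusted p under 0.05, 1 of the 3 (Cxcr4) did, where 9.23% of all genes were lower at that level and 6.05% higher. Least squares without moderation put 2 of the 3 (Cxcr4 and Ackr3) under an unadjusted 0.05, where 10.1% of all genes were, and 0 past the adjusted threshold, which 0.0055% of all genes passed (limma without moderation, adjusted p = 0.286 for Cxcr4 and 0.476 for each of the others). The residual SD of Cxcr4 was 0.031 and that of Ackr3 0.049, and moderation, which draws each gene towards the spread of all genes, raised them to 0.14 each. Many genes moved a little: the median difference over all genes was -0.061, and it was -0.15 for the 11174 genes whose mean reached 6, to which all 3 members belong. Scaled to equal array medians, the differences became -0.27 for Cxcr4, 0.26 for Ackr3 and 0.32 for Cxcl12, and the groups of each gene still did not overlap. After quantile normalization they were -0.28, 0.28 and 0.32, again without overlap.

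The receptors were also set against each other within each array, which removes any scaling that an array applies to both. Ackr3 minus Cxcr4 was -0.80, -0.78 and -0.82 in C1, C2 and C3 and -0.20, -0.32 and -0.28 in M1, M2 and M3. The 3 Fz8-null arrays were tightly grouped, and every double-null array lay above them. The mean went from -0.80 ± 0.019 to -0.26 ± 0.061 (SD, n = 3 in each), so the Ackr3 signal relative to the Cxcr4 signal was 1.45-fold higher in double-null kidneys (difference 0.53). Cxcl12 minus Cxcr4 was -0.84, -0.49 and -0.63 in the Fz8-null and -0.17, 0.0021 and -0.024 in the double-null arrays, a difference of 0.59 without overlap. These separations follow from those of the single genes, which moved opposite ways without overlap, and so add no test of their own. Signals of different probe sets are on no common scale, so only these shifts, and not the signs within an array, compare the genes.

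Without each array in turn the Cxcr4 difference lay between -0.35 and -0.30 and the Ackr3 difference between 0.17 and 0.24. The unadjusted limma p of Cxcr4, the one member under 0.05, stayed there without C1 (0.0445), M2 (0.0493) or M3 (0.0342), but was 0.0605 without C2, 0.0862 without C3 and 0.0575 without M1. M1 alone against the Fz8-null arrays gave -0.32 for Cxcr4, 0.28 for Ackr3 and 0.16 for Cxcl12. With array weights, which gave M1 the most weight and M3 the least, Cxcr4 (-0.31, limma adjusted p = 0.0186) and Ackr3 (0.27, limma adjusted p = 0.0343) passed, but so did 7576 of the 18193 genes. Of the 17 alternatives 12 for Cxcl12 and 11 for each receptor gave another estimate, all in the same direction, and the rest changed the error or the threshold alone or left the estimate as it was. Where arrays were left out or weighted, the direction was fixed in advance, because the groups did not overlap.

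**Figure D2:**
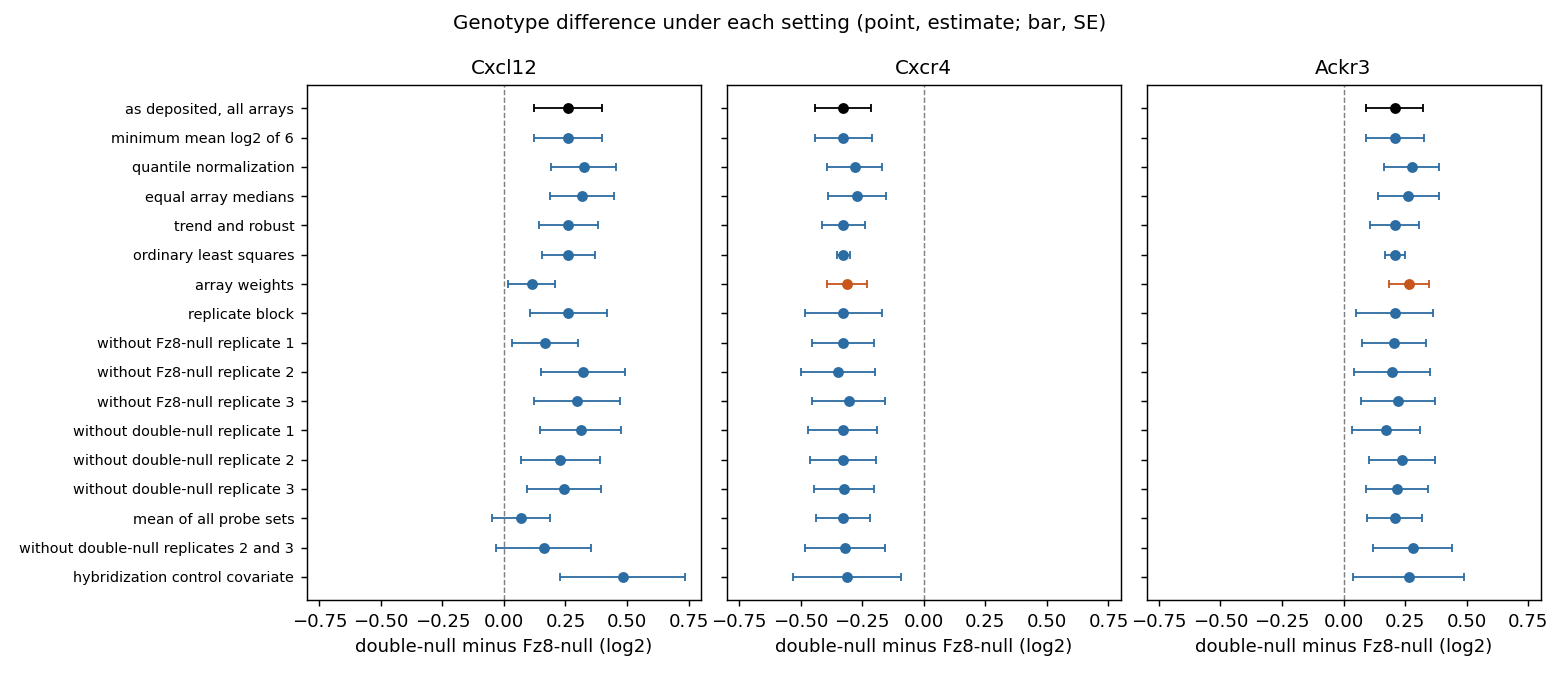
Double-null minus Fz8-null difference (log2) of Cxcl12, Cxcr4 and Ackr3 as deposited (black) and under the other settings, with bars of 1 SE; orange marks an adjusted p under 0.05 and blue any other. Cxcr4 lies below 0 and Ackr3 above 0 in every setting, and Cxcl12 ranges from 0.069 to 0.48. The groups do not overlap, so settings that leave out or weight arrays could not change a sign.

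Among other genes of the pathway, none passed the threshold (limma). Of 31 listed genes 28 were measured, 11 higher and 17 lower, with a median difference of -0.078 against -0.061 over all genes, and 2 were lower at an unadjusted p under 0.05, where 9.23% of all genes were. For the 22 of them whose mean reached 6, of which 15 were lower, the median was -0.096, against -0.15 over all genes that bright, of which 71.5% were lower. The list's median moved with single arrays, to -0.0065 without C1, -0.16 without C3 and -0.14 without M3. After quantile normalization 13 were higher and 15 lower, with a median of -0.023.

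Further ligands and their partners (Mif, an alternative ligand of Cxcr4, its binding partner Cd74, and Adm, a peptide that Ackr3 also clears) had differences of -0.16, -0.22 and -0.18. Of the proteases that can cut Cxcl12, Dpp4 stood at 0.20 and Mmp2 at 0.18, and Mmp14, a membrane-anchored metalloproteinase, was the pathway gene of smallest p. Mmp14 read 8.18, 8.44 and 8.22 in the Fz8-null and 7.08, 6.87 and 7.92 in the double-null arrays. All 3 double-null arrays lay lower, M3 least so, and the difference was -0.99 (SE 0.28, limma adjusted p = 0.314).

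Inhibitory G protein subunit genes stood at 0.24 (Gnai1), 0.14 (Gnai2) and 0.055 (Gnai3). All 6 measured genes of receptor kinases, arrestins and receptor turnover had negative differences as deposited, with a median of -0.21, and all have a mean of at least 6, where 71.5% of genes were lower. None passed (limma). After quantile normalization Grk6 (0.041) and Arrb1 (0.11) turned positive and the median was -0.083, and with equal array medians Arrb1 was at 0.027. The mean of the 6 genes stood at -0.29, -0.34 and 0.11 from the Fz8-null mean in M1, M2 and M3, so M3 lay above the controls. Among these, Arrb2, an arrestin recruited to both receptors, stood at -0.25 and Itch, a ubiquitin ligase for Cxcr4, at -0.20. Of the effectors Plcb3, a phospholipase driven by G proteins, read 8.93, 9.15 and 9.16 in the Fz8-null and 8.81, 8.35 and 8.73 in the double-null arrays, lower without overlap (-0.45, SE 0.17, limma adjusted p = 0.315). Pik3cg, a lipid kinase of leukocytes, stood at 0.99 (SE 0.45, limma adjusted p = 0.335), with M1 and M2 above and M3 within the range of the controls.

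The rest of the chemokine family was mostly dim: 9 of 34 measured ligand genes and 2 of 19 measured receptor genes besides the members had a mean of at least 6. None passed (limma). Of the ligand genes 23 were higher and 11 lower, with a median difference of 0.15, and at an unadjusted p under 0.05 there were 6 higher and 1 lower, where 6.05% and 9.23% of all genes were. Of the 25 ligand genes with a mean under 6, 18 were higher, and of all 7019 genes that dim 63.2% were. The median was 0.029 without M2, 0.099 without M3, 0.23 without M1, 0.031 with array weights and 0.093 after quantile normalization. The brightest were Cxcl13 (difference -0.61, SE 0.61), a B cell attractant, Cxcl14 (-0.0041, SE 0.21) and Pf4, a platelet chemokine (0.22, SE 0.33). Those of smallest p were Ccl9 at 0.76, Ppbp, also of platelets, at -1.04, and Cxcl9, which draws lymphocytes, at 0.88 with M3 inside the control range (limma adjusted p = 0.314 for each).

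Of the other receptor genes 16 were higher and 3 lower, with a median of 0.24, and 3 were higher at an unadjusted p under 0.05, where 6.05% of all genes were. A mean under 6 was found for 17 of them, 15 of which were higher, against 63.2% of all genes that dim. After quantile normalization 13 were higher and the median was 0.12, and without M3 it was 0.15. Ccr2, a monocyte receptor, read 4.67, 4.23 and 3.93 in the Fz8-null and 6.78, 6.81 and 5.15 in the double-null arrays. M1 and M2 were well above the controls and M3 less so (difference 1.97, SE 0.46, limma adjusted p = 0.314). Ccr9 stood at 1.87 with M3 inside the control range, and Ccr1 at 0.55. The brightest probe sets were those of 2 atypical receptors, Ackr4 at -0.31 (SE 0.18) and Ackr1 at 0.54 (SE 0.41), with Ccr2 next. Unlike Cxcr4 and Ackr3, Ackr4 and Ackr1 had overlapping groups. Of the 19 other receptor genes 3, Ccr1, Ccr2 and Ccr6, were higher without overlap, where 6.68% of all genes were.

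**Figure D3:**
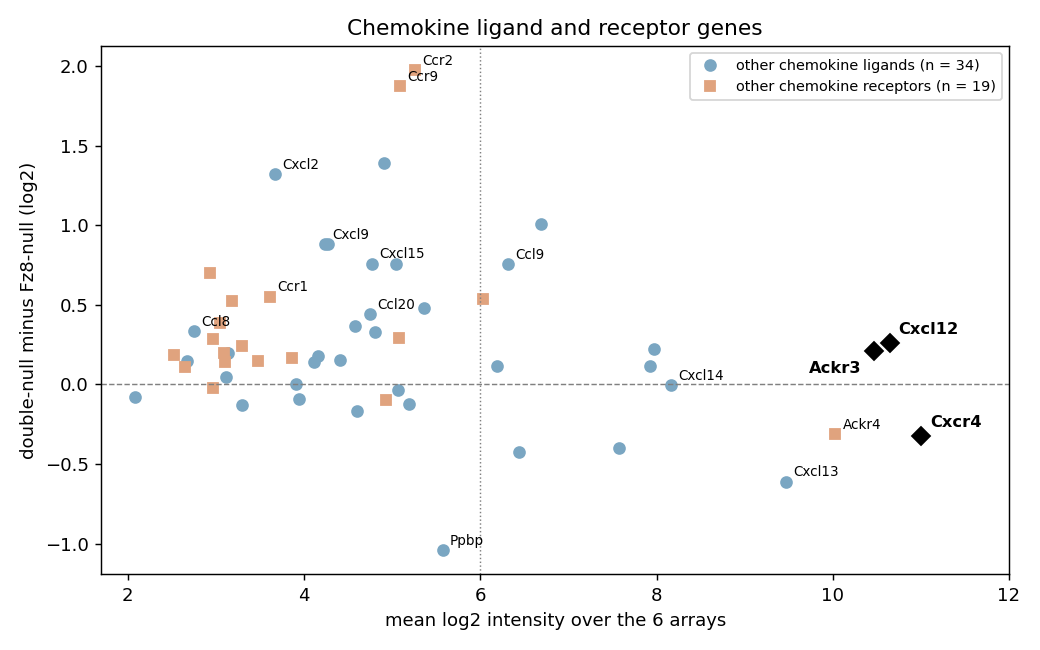
Double-null minus Fz8-null difference (log2, vertical axis) against the mean log2 intensity over 6 arrays (horizontal axis) for 34 other chemokine ligand genes (circles), 19 other chemokine receptor genes (squares) and the 3 members (black diamonds), 1 probe set per gene. The dotted line marks a mean of 6. Large differences such as those of Ccr2 and Ccr9 lie on the dim side, and the members are bright with differences between -0.33 and 0.26.

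Whole kidneys were measured, so fewer cells of a type and less RNA per cell cannot be told apart. Cxcr4 is known in endothelium, blood cells and nephron progenitors, Cxcl12 in stroma and podocytes, and markers of these cells were read in the same arrays. Of 16 endothelial markers 12 were lower and 4 higher, none past the threshold (limma). Of the 15 whose mean reached 6, 11 were lower, where 71.5% of all genes that bright were. The mean of the 16 stood at -0.28, -0.69 and 0.015 from the Fz8-null mean in M1, M2 and M3. Among 11 arterial and tip cell genes 10 were lower, 6 of them among the 6 whose mean reached 6. Their mean stood at -0.22, -0.60 and -0.015. The means near 0 in M3 average genes that went both ways: of the 16, M3 lay below every control for 5 and above every control for 6, and of the 11 below for 4 and above for 3. Cxcr4 stood at -0.32, -0.33 and -0.33 in the same arrays. The endothelial markers of smallest p were Kdr, the main VEGF receptor gene, at -0.80 and Esam, a junction gene, at -0.61. Those of the arterial and tip list were Esm1 at -0.99 and Gja5, a gap junction gene of arteries, at -0.37. Gja5 was dim, with a mean of 3.49. Each of these 4 was below every control in M3 too, but they were picked by p and do not stand for their lists. The part of endothelium in the Cxcr4 difference was not tested.

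Nephron progenitor markers were lower in all 3 double-null arrays, as Cxcr4 was. The mean of 11 genes stood at -0.74, -0.80 and -0.50, and all 11 were lower, 8 of them without overlap, where 12.2% of all genes were. All 11 have a mean of at least 6, where 71.5% of genes were lower. Crym, a thyroid hormone binding protein gene, was at -1.24 and Traf1, a signalling adaptor gene, at -0.78. The list mean ran from 9.19 to 9.22 in Fz8-null and from 8.40 to 8.70 in double-null arrays. Its part in the Cxcr4 difference was not tested. Of 10 ureteric epithelium markers 7 were lower and 3 higher, 3 of the lower ones without overlap and none past the threshold (limma), with means of -0.17, -0.62 and -0.23 in M1, M2 and M3. Of the 8 ureteric genes whose mean reached 6, 6 were lower, against 71.5% of all genes that bright. The ureteric genes of smallest p were Ret, the receptor of branching, at -1.11 and Elf3 at -0.69.

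Of 10 stromal markers 5 were higher and 5 lower, with a median of 0.013 and means of 0.16, -0.040 and 0.28 in M1, M2 and M3. After quantile normalization 8 were higher and 2 lower. Of 6 podocyte markers 4 were higher and 2 lower, or 3 and 3 after quantile normalization, with means of 0.38, -0.10 and 0.37. Cxcl12 stood at 0.16, 0.33 and 0.30 in these arrays, and the part of either cell type in its difference was not tested. Of the stromal genes Dcn, a matrix proteoglycan gene, was higher without overlap at 0.60, and Penk stood at 0.99 with overlapping groups. Aldh1a2, a retinoic acid synthesis gene added after its value was seen, was lower without overlap at -0.26. Of the podocyte genes Clic5 was higher without overlap at 0.73 and Wt1 lower without overlap at -0.27. None of these passed (limma), and of all genes 6.68% were higher without overlap and 12.2% lower. Ureter smooth muscle markers stood at 0.32, 0.14 and 0.20 (7 genes, 4 higher and 3 lower, or 5 and 2 after quantile normalization). Myocd was higher without overlap at 1.19, and Des stood at -0.63 with overlapping groups.

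Transcripts of liver and blood separated M2 and M3 from M1. Liver markers stood at 0.82, 3.16 and 3.50 (7 of 7 higher, among them Afp at 3.22 and Alb at 3.63), and erythroid markers at -0.49, 2.17 and 2.31 (8 of 9 higher, with Hemgn at 3.06 and Rhag at 1.09). The liver mean ran from 5.50 to 6.23 in Fz8-null and from 6.60 to 9.28 in double-null arrays, and the erythroid mean from 5.55 to 5.78 and from 5.17 to 7.97. Macrophage and leukocyte markers stood at -0.36, 0.65 and 0.57 (10 of 14 higher, with C1qb at 1.27 and Lyz2 at 1.36). These 2 were picked by p and do not stand for the list: C1qa was at -0.13 and C1qc at 0.25, both with overlapping groups. In M1, 9 of the 14 lay below every control and only C1qb above every control. In M1, the double-null array low in blood markers but with liver markers at 0.82, Cxcr4 stood as far below the controls as in M2 and M3 to within 0.012. In the same array Ackr3 stood further above the controls, while Cxcl12 was nearer to them. M1 is a single array, and the part of liver and blood transcripts in the differences of the members was not tested. Hypoxia response genes, of interest because Cxcr4 and Cxcl12 are known to be induced by low oxygen, stood at -0.22, -0.12 and 0.12 (12 genes, 4 higher and 8 lower), with Bnip3 at 0.38 and Vegfa at -0.31. Of the 11 hypoxia genes whose mean reached 6, 8 were lower, where 71.5% of all genes that bright were.

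**Figure D4:**
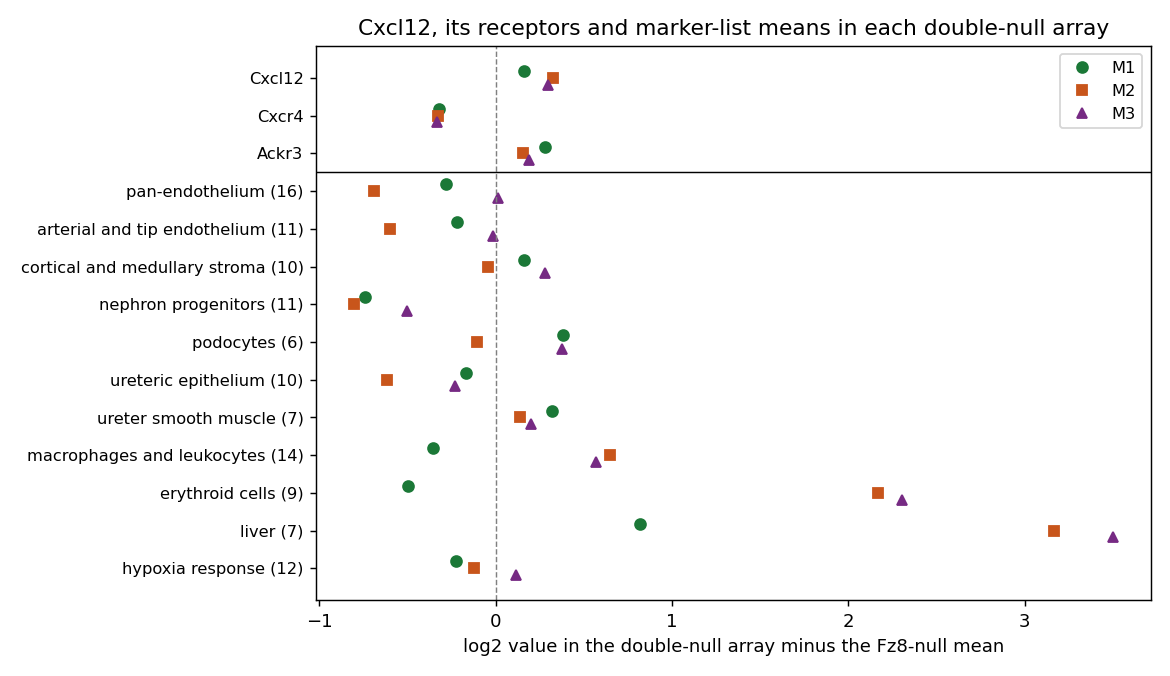
Log2 value in each double-null array (M1 circles, M2 squares, M3 triangles) minus the mean of the Fz8-null arrays, for the 3 members (top) and for the mean of each marker list (number of genes in brackets). The 3 points of Cxcr4 lie together near -0.33, and those of the liver and erythroid lists are spread from M1 to M3.

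Genes with the most similar pattern over the 6 arrays were named by Pearson's r among the 11174 genes whose mean reached 6, as a description without a test. The arrays fall into 2 genotypes, so a high r can reflect the step between them alone. Closest to Cxcr4 were Ctr9, Asb4, Atp10a, Kbtbd6 and Sema4b (r of 0.99 each), all lower in double-null kidneys, from -4.10 for Ctr9 to -0.36 for Atp10a. Closest to Ackr3 were Acer3 (0.99), Gcnt1 (0.99), Serinc3 (0.97), Pla2g4a (0.97) and Pdzk1ip1 (0.96), all higher, by 0.25 to 0.78. Closest to Cxcl12 were Zfyve21 (0.99), Akr1c12 (0.99), Ddc (0.98), Mppe1 (0.96) and Zswim7 (0.96), each of which, like Cxcl12, was lowest in C1. An r of at least 0.95 was reached by 57 genes for Cxcr4 (0.51% of those compared), 8 for Ackr3 (0.0716%) and 6 for Cxcl12 (0.0537%).

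The arrays and labels were checked with values that touch these results. The mean of Fzd4 was 10.84 ± 0.094 (SD, n = 3) with Fz4 present and 4.71 ± 0.74 (SD, n = 3) without it, as the genotypes require, and Fzd8 lay near background in both groups. Array medians ran from 6.02 to 6.14. Of 64 control probe sets 18 were higher without overlap in the double-null arrays and 2 lower, and the mean of the BioB and BioC hybridization controls was 10.81, 10.22 and 10.12 in C1, C2 and C3 and 10.98, 11.25 and 11.17 in M1, M2 and M3. With this mean as a covariate Cxcr4 stood at -0.31 and Ackr3 at 0.27 with wider errors (SE 0.22 for each, limma adjusted p = 0.995). The 5′ probe set of 18S ribosomal RNA read 8.53, 7.59 and 7.84 in C1, C2 and C3 and 9.88, 10.56 and 9.86 in M1, M2 and M3. Its 3′ probe set read 8.14, 7.32 and 7.40 in the Fz8-null and 9.16, 9.64 and 9.25 in the double-null arrays. On the middle one the groups overlapped (11.23, 11.43 and 11.38 against 10.79, 11.12 and 11.87). The cause of these shifts was not tested, and the labels give no batch.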

How the data were processed

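Log2 probe-set intensities were deposited by the authors after normalization between arrays with RMA, per the submitters' processing notes (version not stated). They were used as deposited. Labelled cRNA was made from 100 ng of total RNA, per the labels' protocols. Of 45101 probe sets, 64 controls were set aside. The platform annotation gave 1 gene for 34945, several for 932 and none for 9160. Each gene was represented by its probe set of highest mean. Double-null and Fz8-null arrays were compared with limma 3.58.1 (R 4.3.3; lmFit and eBayes), two-sided, with Benjamini-Hochberg adjustment over 18193 genes or 45037 probe sets and a threshold of 0.05. The pipeline was tested on simulated data whose shifts were larger than the differences of the members. That test therefore does not show whether differences as small as theirs would be found. Exact permutation tests were two-sided.

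The members and lists were chosen with earlier results of these data known. Named were the members with all their probe sets; from each list the 3 genes of smallest p, and for chemokines the 3 brightest; from each marker list the 2 of smallest p; and the 5 genes most like each member by Pearson's r. Other pathway genes, and the opening values of the kidney markers and Alb, were added after their values were seen. The limma p-values set each difference against the spread between these arrays only, which moderation draws towards that of all genes. The small number of arrays limits the precision.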

Additional observations from a re-analysis of the deposited data

How the results depend on the processing

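Of 17 alternatives 12 gave another estimate for Cxcl12 and 11 for each of Cxcr4 and Ackr3, and none of these reversed a direction. The others keep the estimate by construction. Leaving out or weighting arrays could not reverse a direction, since the groups of each member did not overlap. Adjusted p of the members stayed above 0.05 in all but array weights, where Cxcr4 (-0.31, adjusted p = 0.0186) and Ackr3 (0.27, adjusted p = 0.0343) passed along with 7576 genes and 20686 probe sets. Of all genes 5 passed as deposited, 1 by ordinary least squares, 1 with the mean of all probe sets, 3 with the replicate block and 11 at an adjusted p of 0.1, and of probe sets 5, then 2 with a minimum mean of 6, 0 by least squares and 0 with the replicate block. Leaving out 1 array gave 2 to 3292 genes and 0 to 10747 probe sets, the highest without M3, then without M1 (39 genes). Without M3 the adjusted p was 0.111 for Cxcr4, 0.257 for Ackr3 and 0.291 for Cxcl12. Same-numbered arrays of the 2 groups did not deviate together (residual correlations 0.17, -0.14 and 0.090), so the numbers were not taken as pairs, and the replicate block changed no call of a member (limma adjusted p = 0.386 for Cxcr4). Medians that moved by more than the spread between arrays were those of the other chemokine receptors and of the other ligands. The receptor median was 0.24 as deposited, 0.11 with a minimum mean of 6 and 0.12 after quantile normalization. The minimum mean left out 17 of the 19 receptor genes. The 0.11 therefore rested on 2 genes that went opposite ways, Ackr1 (0.54) and Ackr4 (-0.31). Without 1 array the ligand median ran from 0.029 (without M2) to 0.23 (without M1). Within arrays, Ackr3 minus Cxcr4 was 0.60 without M2 and M3 together, an alternative chosen after the data were seen, and Cxcl12 minus Cxcr4 was 0.40 with the mean of all probe sets. The causes were not tested.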
